A study of Homo sapiens with 16 samples.

Results

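The mRNAs described here encode the cap-binding eIF4F complex and its closest regulators. They were 10 genes chosen by name, of the 60107 genes listed in each count table: the cap-binding proteins EIF4E and EIF4E2, the scaffolds EIF4G1, EIF4G2 and EIF4G3, the helicases EIF4A1 and EIF4A2 with their cofactor EIF4B, and the eIF4E inhibitors EIF4EBP1 and EIF4EBP2. Tags from the 3′ ends of cytoplasmic mRNA were counted in U2OS-TR, an osteosarcoma line of human origin with a stably expressed tetracycline repressor. The Control (n = 5) and Induced (n = 5) libraries came from U2OS-TR cells that also carry an integrated ΔN-RNMT transgene, and the Induced cells had received doxycycline at 1 μg/ml. The No Dox (n = 3) and With Dox (n = 3) libraries came from the parental U2OS-TR cells, which lack the transgene, without and with the same drug. Doxycycline was added 48 h after the cells were split, and cells were collected 24 h later.

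ΔN-RNMT is a C-terminal portion of the cap methyltransferase RNMT with a mutation in the S-adenosylmethionine site, driven by a CMV promoter with tetracycline operators. The study used it to inhibit methylation of caps in the cytoplasm. The transgene line is 1 clone, chosen for its strong expression of the protein, and the libraries are separate dishes of that clone, so that the P values below measure the spread between dishes. The comparison of Induced with Control asks how the mRNAs respond when ΔN-RNMT is made, and With Dox against No Dox asks what the drug does in cells without it.

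As background, eIF4F assembles on the m7G cap of an mRNA. EIF4E holds the cap, an EIF4G scaffold joins EIF4E to the helicase EIF4A and to the poly(A)-binding protein, and EIF4A with EIF4B unwinds the 5′ leader so that the small ribosomal subunit can load. The 4E-binding proteins compete with EIF4G for the same face of EIF4E, and phosphorylation by the kinase mTOR releases them. Translation of mRNAs that start with a 5′-terminal oligopyrimidine (TOP) tract, among them EIF4B, is especially dependent on mTOR.

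Depth and library quality differed between the lines. Gene counts were 12527183 to 23251834 per library in the transgene line and 1473286 to 3214808 in the parental line, where the common biological coefficient of variation was also larger (0.444 against 0.320). The lines were sequenced at different facilities on different instruments. For each gene count, 0.0744 to 0.106 tags fell outside genes in the transgene line and 1.11 to 1.5 in the parental line, and mitochondrial genes took 0.854 to 1.52% and 1.76 to 9.38% of gene counts. Of 6 mesenchymal and bone markers, VIM, SPARC, COL1A1 and RUNX2 had tags in every library, COL1A2 and TWIST1 were at or near 0, and ALB was at 0 throughout. The summed level of the 6 was 306 to 641 counts per mega-count (CPM, scaled with edgeR's TMM factors) in Control and 493 to 883 in Induced libraries. Of 3 epithelial markers, EPCAM had tags in every library. Its median was 7.72 CPM in Control and 13.9 in Induced libraries, against 7.60 and 18.3 for RUNX2. CDH1 reached at most 1.78 and 2.67 CPM in these groups, and KRT5 was at 0 in both. The 3 blood markers summed to at most 1.23 CPM in any library. RNMT, the gene behind the transgene, had 55.6 to 112 CPM in Control and 266 to 458 in Induced libraries (log2 fold change 2.22 with a standard error, SE, of 0.23, edgeR adjusted P = 0.00805), and 73.4 to 124 CPM in No Dox against 56.2 to 90.5 in With Dox. The labels of the transgene line therefore matched the expression of RNMT in all 10 libraries. Control replicate 5 and Induced replicate 2 stood apart from their groups for several of the genes below, and values are given without them where that matters.

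The loci are given on GRCh38 with GENCODE annotation. EIF4G1 lies at chr3:184314495-184335358 on the forward strand with 33 exons in its canonical transcript, and EIF4A2 at chr3:186783205-186789897 on the forward strand with 11 exons, overlapping RFC4 on the opposite strand. EIF4EBP2 has 3 exons at chr10:70404145-70428618 on the forward strand, and EIF4E2 has 7 exons at chr2:232550659-232583644 on the forward strand. Tags that aligned to more than 1 place were left out of the counts, which matters for genes with processed copies elsewhere. The annotation names 13 pseudogenes for EIF4A1, 9 for EIF4B, 5 each for EIF4E and EIF4A2, 3 for EIF4EBP2, 2 for EIF4E2 and 1 for EIF4EBP1, and none for the 3 EIF4G genes. EIF4A1 (chr17:7572824-7579006) also shares its exons with the readthrough gene SENP3-EIF4A1, which was listed at 0 tags in all 16 libraries.

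Because the study is concerned with the start of mRNAs, the annotated 5′ ends of the 4 genes that changed in the transgene line are shown with that of EIF4B, a classic TOP mRNA, for comparison. Each line gives 10 bases before and 15 bases from a RefSeq start on GRCh38.p14, 5′ to 3′, and capitals mark the unbroken run of C and T that begins at the start itself.
EIF4G1 start 1, chr3:184314596-184314620, forward strand: gcggggagccggaaatggttgtgga
EIF4G1 start 2, chr3:184315154-184315178, forward strand: gggccgacccTCacttgcctgaaac
EIF4G1 start 3, chr3:184320253-184320277, forward strand: ctggatctgggccctgcccccagag
EIF4A2, chr3:186783567-186783591, forward strand: gcgccgctgtCTTTTCagtcgggcg
EIF4EBP2, chr10:70404135-70404159, forward strand: gccttcgcccgcttccggtcgtcgt
EIF4E2 start 1, chr2:232550679-232550703, forward strand: agcggaagtcactccctgaggcagt
EIF4E2 start 2, chr2:232551057-232551081, forward strand: gggtggggacCTCggcggtttgggt
EIF4B, chr12:53006446-53006470, forward strand: tcatccgggtCTTTTgcgttctctt

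A C followed by at least 4 more bases that are C or T, read on the gene's own strand and only at the start, was found at 1429 of 35116 RefSeq starts (4.07%). Of the 14 starts listed for 9 of the 10 genes, 2 had it, those of EIF4A2 and EIF4B. A match describes these letters and does not show where the mRNAs of U2OS cells begin.

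In the transgene line, induction of ΔN-RNMT went with more EIF4G1, EIF4A2 and EIF4EBP2 mRNA and less EIF4E2 mRNA. EIF4G1 rose 2.76-fold, EIF4A2 1.84-fold and EIF4EBP2 1.65-fold, and EIF4E2 fell by 31.3% (n = 5 per group). The other 6 mRNAs, among them EIF4E itself, did not pass the test. All 10 genes were tested, and 4 were called at an adjusted P below 0.05 by edgeR's quasi-likelihood test, 3 higher and 1 lower. Over all 13038 genes tested, 39.8% were called, 20% higher and 19.8% lower, so the share called among these genes was close to the background. Their median log2 fold change was 0.16 against 0.04 over all genes. In none of the 10 were Control and Induced libraries fully separated, as they were for 7.3% of all genes tested (3.08% higher and 4.22% lower). An unadjusted P below 0.05 was found for 4 of the 10 and for 53.3% of all genes. More or fewer cells with an mRNA, and more or less of it per cell, cannot be told apart in such bulk samples.

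**Figure D1:**
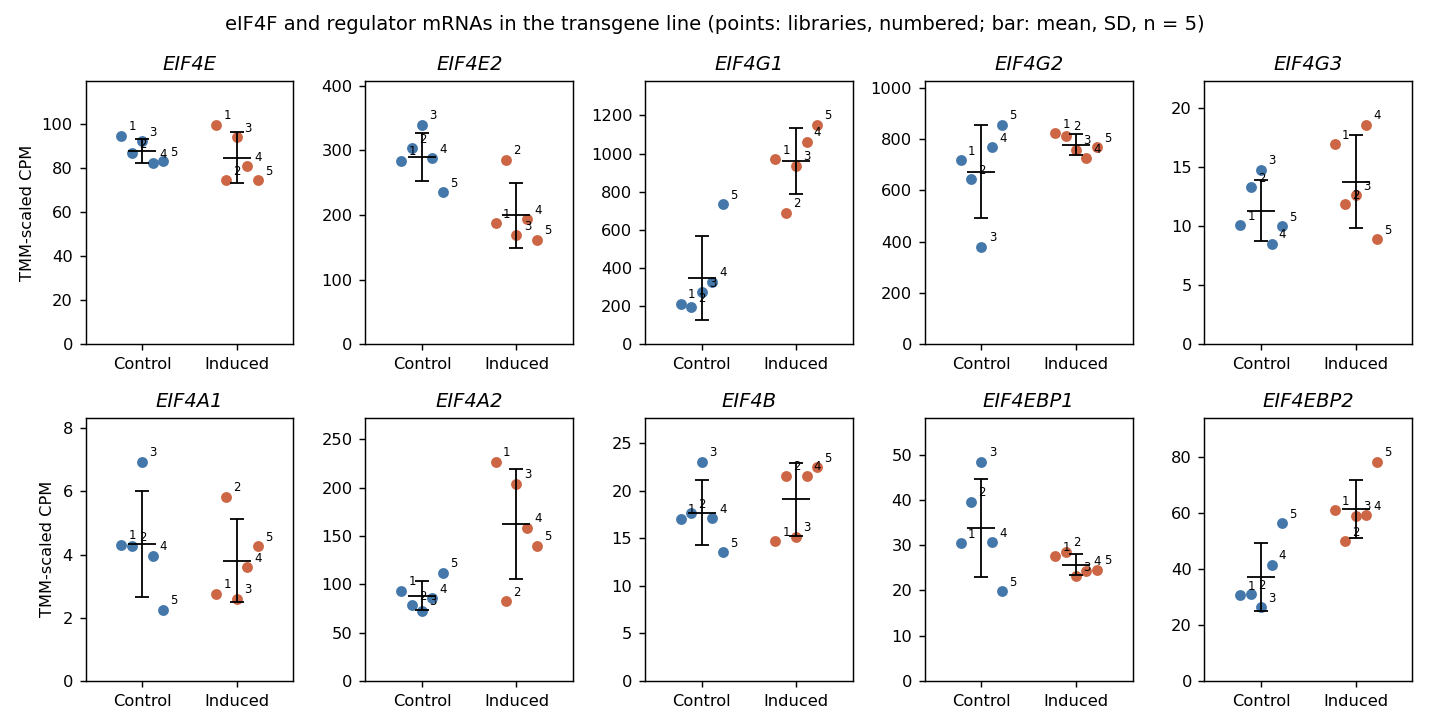
TMM-scaled CPM (vertical axis, from 0) of the 10 mRNAs in each Control and Induced library of the transgene line. Points are libraries with their replicate numbers, and bars are mean and SD (n = 5). EIF4G1 sits at 195 to 733 CPM in Control and 690 to 1150 in Induced libraries, with Control replicate 5 above Induced replicate 2. For EIF4E the Control range lies inside the wider Induced range.

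EIF4E, which binds the cap, had 94.7, 86.9, 92.2, 82.3 and 83.1 CPM in Control replicates 1 to 5. It had 99.7, 74.5, 94.2, 81.0 and 74.6 CPM in Induced replicates 1 to 5. The Control range lay inside the wider Induced range, with Induced replicates 2, 4 and 5 below every Control library and Induced replicate 1 above. The change was -0.05 on the log2 scale (SE 0.14, edgeR adjusted P = 0.769). EIF4E mRNA is poor in G and C (34.5% of its canonical transcript), and a fit with GC offsets, which remove the trend of each library's counts with GC content, gave it -0.66 on the log2 scale (edgeR adjusted P = 0.0274), which is a call.

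EIF4E2, also known as 4EHP, binds the cap but not EIF4G, and represses translation with GIGYF partners. Control replicates 1 to 5 had 284, 303, 339, 288 and 235 CPM, and Induced replicates 1 to 5 had 187, 285, 169, 193 and 162 CPM. All Induced libraries but replicate 2 lay below every Control library, and Induced replicate 2 lay among the latter. Its log2 fold change was -0.54 (SE 0.18, edgeR adjusted P = 0.0360). This call was not stable. It held without Control replicate 5 (adjusted P = 0.00984) or Induced replicate 2 (0.00620), but was lost without Control replicate 1, 2, 3 or 4 (0.0666, 0.0762, 0.0589 and 0.0635) or Induced replicate 1, 3, 4 or 5 (0.0827, 0.0897, 0.0776 and 0.0711), all from edgeR. In the fits that lost it the log2 fold change was -0.56 to -0.47. Calls over all genes fell from 5183 to between 1869 and 3755 in these fits.

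EIF4G1, the main scaffold of eIF4F, showed the largest change among the 10. Control replicates 1 to 5 had 213, 195, 273, 327 and 733 CPM, and Induced replicates 1 to 5 had 970, 690, 935, 1063 and 1150 CPM. All Induced libraries were above Control replicates 1 to 4, while Control replicate 5 was higher than Induced replicate 2. The mean was 348 ± 221 CPM in Control and 962 ± 173 in Induced libraries (SD, n = 5), and the log2 fold change was 1.47 (SE 0.34, edgeR adjusted P = 0.0175). EIF4G1 was called whichever library was left out, with log2 fold changes of 1.31 to 1.92 and adjusted P values up to 0.0495, and was 2.03 without both Control replicate 5 and Induced replicate 2. With 1 surrogate variable, an unlabelled axis of variation estimated from the counts, in the fit it was 1.08 and was not called (edgeR adjusted P = 0.0654).

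EIF4G2, also known as DAP5 or p97, is a scaffold that lacks the site for EIF4E. Its values were 719, 645, 380, 769 and 856 CPM in Control replicates 1 to 5, and 824, 814, 758, 725 and 769 CPM in Induced replicates 1 to 5. Control replicate 3 was the lowest and Control replicate 5 the highest of the 10 libraries, and the Induced libraries lay between. This was a log2 fold change of 0.21 (SE 0.20, edgeR adjusted P = 0.404).

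EIF4G3, a paralog that can take the place of EIF4G1, was counted at a low level. Control replicates 1 to 5 had 10.1, 13.3, 14.8, 8.52 and 9.98 CPM, and Induced replicates 1 to 5 had 16.9, 11.9, 12.6, 18.6 and 8.91 CPM. The highest and the second lowest of the 10 values were both Induced libraries, and the log2 fold change was 0.28 (SE 0.23, edgeR adjusted P = 0.318). Of the 3 scaffolds, 1 was thus called, against 39.8% of all genes.

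The difference within the EIF4G family also shows as a ratio inside each library. A prior count of 2, scaled to the size of the library, was added to both genes, and scaling enters only through it. The log2 ratio of EIF4G2 to EIF4G1 tags was 1.08 ± 0.71 in Control and -0.29 ± 0.33 in Induced libraries (SD, n = 5). Its ranges, 0.22 to 1.75 and -0.58 to 0.24, barely met. The ratio of EIF4G3 to EIF4G1 went from -4.78 ± 0.94 to -6.14 ± 0.50 (log2, SD, n = 5). These ratios are descriptions without a test, and they compare 1 gene's tags with another's only as a change between groups.

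EIF4A1, the helicase subunit named in most descriptions of eIF4F, had few tags. It stood at 4.32, 4.27, 6.95, 3.97 and 2.26 CPM in Control replicates 1 to 5 and at 2.76, 5.83, 2.60, 3.59 and 4.27 CPM in Induced replicates 1 to 5. The groups overlapped, with a log2 fold change of -0.18 (SE 0.31, edgeR adjusted P = 0.642). Its value covers only tags placed uniquely and within 1 gene. Tags ambiguous between genes, 0.0117 to 0.0195 for each gene count over the 16 libraries, were left out too. The part of its processed copies and of SENP3-EIF4A1 in the low count was not tested, so the count need not reflect the level of the mRNA.

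EIF4A2, the closely related second helicase, had 93.1, 78.1, 72.7, 85.4 and 112 CPM in Control replicates 1 to 5. In Induced replicates 1 to 5 it had 227, 82.2, 204, 158 and 140 CPM. All Induced libraries but replicate 2 were above every Control library, and replicate 2 lay within the Control range. This gave a log2 fold change of 0.88 (SE 0.25, edgeR adjusted P = 0.0219). The call was lost without Control replicate 2 (adjusted P = 0.0579), Induced replicate 1 (0.0579), Induced replicate 3 (0.0560) or Induced replicate 4 (0.0509), and with GC offsets, where the log2 fold change was 0.47 (edgeR adjusted P = 0.0851). Without those libraries the log2 fold change of EIF4A2 was 0.73 to 0.89. Calls over all genes fell from 5183 to between 1869 and 2305 in these fits.

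EIF4B, the cofactor that stimulates the helicase, had 17.1, 17.7, 23.1, 17.1 and 13.5 CPM in Control replicates 1 to 5. Induced replicates 1 to 5 had 14.7, 21.6, 15.2, 21.6 and 22.5 CPM. The groups overlapped and the log2 fold change was 0.11 (SE 0.19, edgeR adjusted P = 0.635). Of the 2 genes whose start holds a C and at least 4 more pyrimidines, shown above, EIF4A2 rose and EIF4B did not pass the test. The difference between them was not tested.

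EIF4EBP1, an inhibitor that sequesters EIF4E when mTOR is inactive, had 30.5, 39.6, 48.5, 30.6 and 19.8 CPM in Control replicates 1 to 5 and 27.6, 28.5, 23.1, 24.4 and 24.6 CPM in Induced replicates 1 to 5. The 4 highest values were Control libraries, but the lowest was Control replicate 5. The log2 fold change was -0.40 (SE 0.21, edgeR adjusted P = 0.144). Without Control replicate 5 it was -0.55 and passed the test (edgeR adjusted P = 0.0139). The canonical transcript is rich in G and C (62.9%), and with GC offsets the log2 fold change was 0.09.

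EIF4EBP2, the second inhibitor of the same kind, had 30.6, 30.9, 26.3, 41.4 and 56.3 CPM in Control replicates 1 to 5. It had 60.9, 49.7, 58.9, 59.1 and 78.2 CPM in Induced replicates 1 to 5. Control replicate 5 lay above Induced replicate 2, and otherwise the groups were apart. EIF4EBP2 thus had a log2 fold change of 0.73 (SE 0.22, edgeR adjusted P = 0.0256). The call was lost without Control replicate 1 (adjusted P = 0.0648), Control replicate 2 (0.0670), Induced replicate 1 (0.0560), Induced replicate 3 (0.0533), Induced replicate 4 (0.0545) or Induced replicate 5 (0.0553), and with GC offsets, where the log2 fold change was 0.52 (edgeR adjusted P = 0.0569). Without those libraries the log2 fold change of EIF4EBP2 was 0.62 to 0.74. Calls over all genes fell from 5183 to between 1869 and 3732 in these fits.

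The balance of the inhibitors was read inside each library as well. The log2 ratio of EIF4EBP2 to EIF4EBP1 tags was 0.0048, -0.36, -0.88, 0.43 and 1.5 in Control replicates 1 to 5, and 1.14, 0.80, 1.35, 1.27 and 1.67 in Induced replicates 1 to 5. Control replicate 5 was the only Control library inside the Induced range. The ratio of EIF4EBP2 to EIF4E went from -1.29 ± 0.51 to -0.47 ± 0.32, and that of EIF4EBP1 to EIF4E from -1.44 ± 0.44 to -1.72 ± 0.24 (log2, SD, n = 5). The ratio of EIF4E2 to EIF4E went from 1.71 ± 0.16 to 1.21 ± 0.44, and that of EIF4A2 to EIF4A1 from 4.38 ± 0.79 to 5.35 ± 1.03 (log2, SD, n = 5). The groups overlapped in each of these ratios.

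Several of the mRNAs varied together across the 10 libraries of the transgene line. After each group's mean was removed, the 5 pairs with the strongest Pearson correlation of log2 CPM were EIF4A1 and EIF4B (r = 0.90), EIF4G1 and EIF4EBP2 (0.87), EIF4A1 and EIF4A2 (-0.85), EIF4EBP1 and EIF4EBP2 (-0.84), and EIF4E2 and EIF4A2 (-0.81). Control replicate 5, with the highest EIF4G1 and EIF4EBP2 of its group, had the lowest EIF4E2 and EIF4EBP1. These coefficients share the same 10 libraries and depths and are descriptions only. For the closest genes, group means were not removed, so r also holds the difference between Induced and Control libraries. They are the top 5 of the 13038 genes tested. Over the same libraries the genes whose log2 CPM was most like that of EIF4G1 were ELP4 and FAF2 (both r = 0.988), TBC1D15 and NUP214 (both r = 0.986), and WDR33 (r = 0.985). Those most like EIF4E2 were MYO3A (r = 0.984), SRP14 (r = 0.983), and POLM, EMID1 and DIABLO (all r = 0.982).

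**Figure D2:**
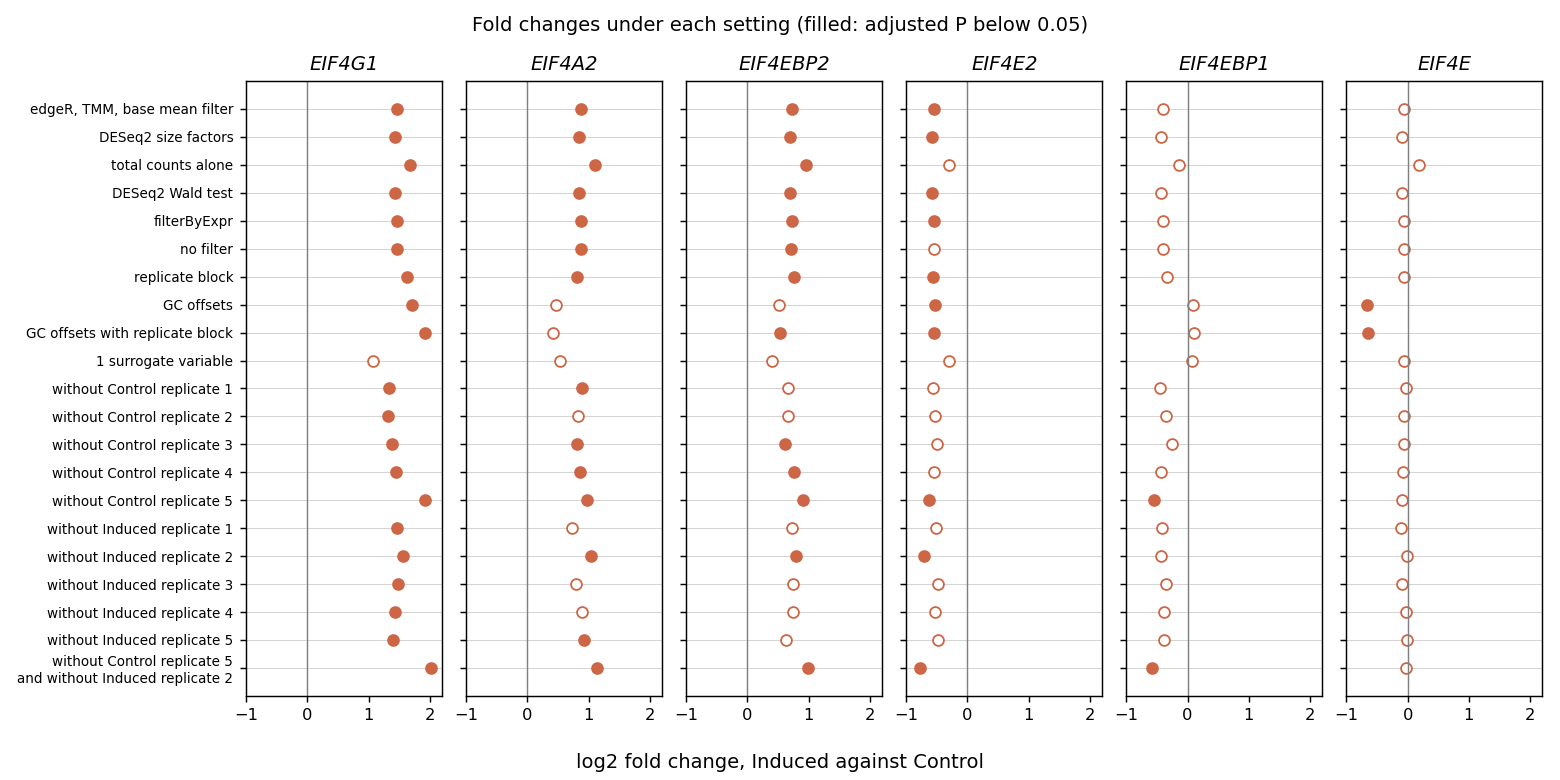
Log2 fold change of Induced against Control (horizontal axis) for 6 of the mRNAs under each way of processing the counts or leaving out libraries (rows). Filled points passed an adjusted P of 0.05. EIF4G1 stays between 1.08 and 2.03 and is open in 1 row only, whereas EIF4E2 is open in most rows that leave out 1 library.

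In the parental line no gene passed the test, so the drug alone gave no call among these mRNAs. Of 9124 genes tested, 0 (0%) were called by edgeR at an adjusted P below 0.05, and 267 (2.93%) had an unadjusted P below 0.05, as did 1 of the 9 genes of the group that could be tested. That gene was EIF4G1, which had 291, 237 and 56.3 CPM in No Dox replicates 1 to 3 and 31.1, 22.3 and 60.3 CPM in With Dox replicates 1 to 3. With Dox replicate 3 lay above No Dox replicate 3, so the groups overlapped. The log2 fold change was -2.37 (SE 0.62, unadjusted P = 0.00293, adjusted P = 0.997, edgeR), a value opposite in sign to that in the transgene line. With no filter on low counts it was -2.29 and was called (edgeR adjusted P = 0.0215).

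The other parental values were spread widely between replicates. EIF4E had 112, 173 and 171 CPM in No Dox and 197, 222 and 185 CPM in With Dox replicates 1 to 3. It was the only one of the 10 whose groups did not overlap, as held for 9.52% of all genes tested (4.87% higher and 4.66% lower), and its log2 fold change was 0.40 (SE 0.37, edgeR adjusted P = 0.997). EIF4E2 had 125, 220 and 138 CPM in No Dox and 204, 217 and 288 CPM in With Dox replicates 1 to 3, with a log2 fold change of 0.55 (SE 0.39). These cap-binding proteins were thus a little higher on average with the drug, by less than the test could separate from replicate spread.

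EIF4G2 had 291, 1875 and 498 CPM in No Dox and 702, 730 and 1840 CPM in With Dox replicates 1 to 3 (log2 fold change 0.30, SE 0.68). EIF4G3 had 34.4, 7.32 and 12.6 CPM against 8.22, 7.98 and 3.26 CPM (-1.42, SE 0.65). Both groups thus held libraries that differed several fold from each other. EIF4A1 had 8, 5 and 6 tags in No Dox and 2, 0 and 9 tags in With Dox replicates 1 to 3 and fell below the filter. EIF4A2 had 86.1, 96.9 and 146 CPM against 109, 117 and 63.6 CPM (-0.18, SE 0.41). EIF4B had 34.4, 9.75 and 14.7 CPM against 10.7, 14.4 and 17.9 CPM (-0.46, SE 0.55). For the helicases and their cofactor the groups overlapped. EIF4EBP1 had 60.9, 43.9 and 17.7 CPM against 17.5, 13.2 and 72.5 CPM (-0.27, SE 0.68), and EIF4EBP2 had 78.7, 155 and 113 CPM against 117, 112 and 86.4 CPM (-0.14, SE 0.39). All of these but EIF4A1, which was not tested, had an adjusted P of 0.997 in edgeR. The log2 ratio of EIF4G2 to EIF4G1 was 2.04 ± 1.76 in No Dox and 4.78 ± 0.28 in With Dox libraries, without overlap, and that of EIF4EBP2 to EIF4E was -0.42 ± 0.23 and -0.94 ± 0.17, also without overlap (SD, n = 3). In the other 5 ratios the groups overlapped. The mean log2 ratio in No Dox and With Dox libraries was -2.01 and -2.92 for EIF4EBP1 to EIF4E, 1.6 and 1.98 for EIF4EBP2 to EIF4EBP1, 0.07 and 0.22 for EIF4E2 to EIF4E, 4.76 and 5.35 for EIF4A2 to EIF4A1, and -3.33 and -2.36 for EIF4G3 to EIF4G1. The ratio of EIF4A2 to EIF4A1 rests on the few EIF4A1 tags given above. In With Dox replicate 2, with 0 EIF4A1 tags, its value of 7.01 is set by the prior count, so the mean of 5.35 is not a measured ratio. Among single genes 9.52% did not overlap between these groups of 3, and the ratios carry no test.

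**Figure D3:**
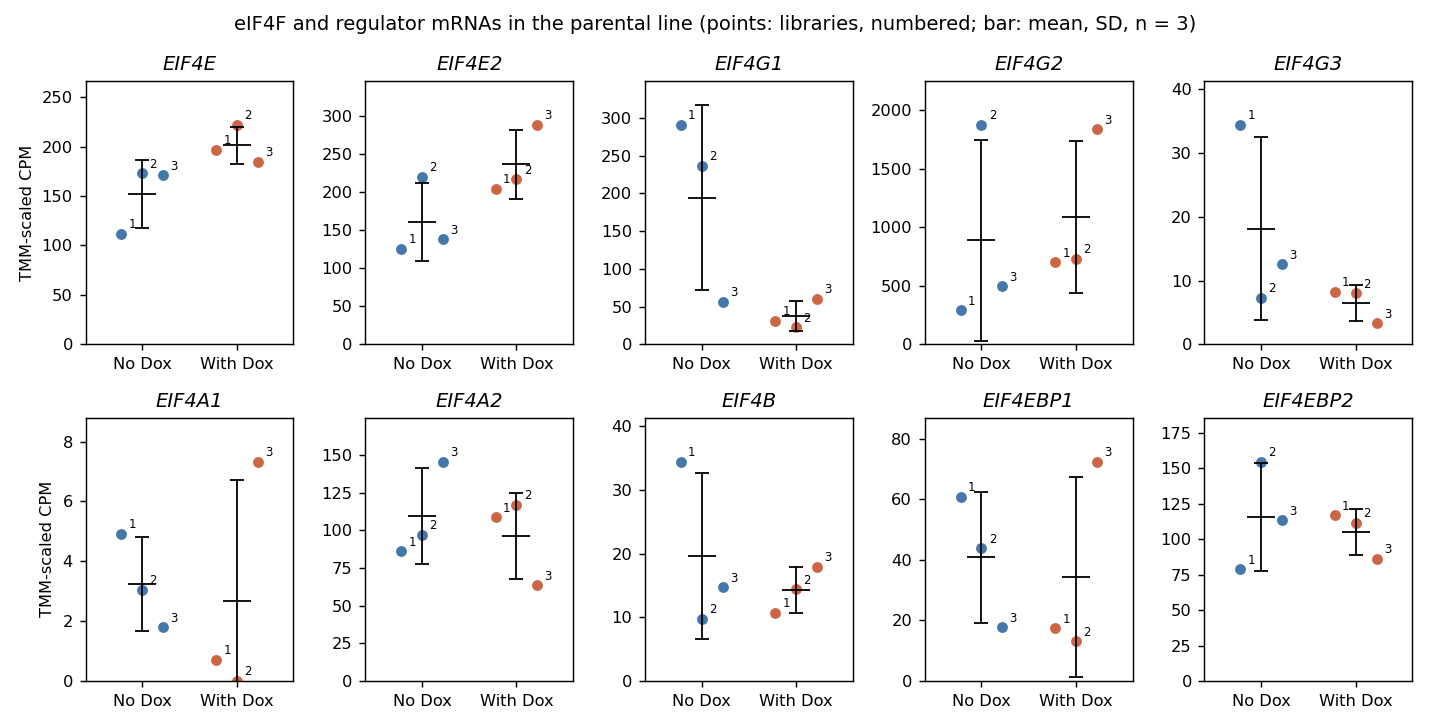
TMM-scaled CPM (vertical axis, from 0) of the 10 mRNAs in each No Dox and With Dox library of the parental line. Points are libraries with their replicate numbers, and bars are mean and SD (n = 3), with the lower bar of EIF4A1 cut at 0. EIF4G1 sits at 291, 237 and 56.3 CPM in No Dox and at 22.3 to 60.3 CPM in With Dox libraries, and EIF4E is the only gene without overlap.

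Whether the 2 lines responded differently was tested as an interaction over all 16 libraries. Of 12265 genes, 2.98% were called, 0.775% with a higher and 2.2% with a lower response in the transgene line, and of the 10 described here 1 was, EIF4G1. Its log2 fold change was higher by 3.64 in the transgene line than in the parental line (SE 0.70, edgeR adjusted P = 0.0372). With all libraries scaled together, EIF4G1 had 379 ± 211 CPM in Control (SD, n = 5), 975 ± 164 in Induced (SD, n = 5), 168 ± 106 in No Dox (SD, n = 3) and 35.1 ± 19.6 in With Dox libraries (SD, n = 3). The order of the levels was therefore Induced, Control, No Dox, With Dox. The ranges of Control and No Dox (226 to 743 and 48.0 to 251) overlapped, as did those of No Dox and With Dox (20.6 to 57.4). Differences in level between lines also carry the change of facility, instrument and depth.

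The difference for EIF4G1 kept its sign whichever library was left out, at 3.38 to 4.19, but its call did not. It was lost without Control replicate 1, 2, 3 or 4 (adjusted P = 0.0839, 0.0864, 0.0564 and 0.0687), without Induced replicate 1, 3, 4 or 5 (0.0822, 0.0784, 0.0894 and 0.0754), and without No Dox replicate 1 or With Dox replicate 1 (both 0.124), all from edgeR. Over all genes, 365 were called with every library. In the fits just named 0 were, except 6 without Control replicate 3 and 4 without Induced replicate 5. The losses were thus not particular to EIF4G1. The share of tags from nuclear-retained RNAs, a sign of nuclear material in the cytoplasmic extract, was 0.0471 to 0.171% in No Dox and 0.0225 to 0.0426% in With Dox libraries, and its part in the result was not tested. EIF4E2 had a difference of -1.33 (SE 0.39, adjusted P = 0.0607, and called without Control replicate 5, Induced replicate 2 or With Dox replicate 2, at 0.0208, 0.0257 and 0.0465), EIF4G3 of 1.45 (0.60, 0.140), EIF4E of -0.69 (0.29, 0.144), EIF4A2 of 0.84 (0.41, 0.205) and EIF4EBP2 of 0.66 (0.36, 0.254). EIF4G2, EIF4A1, EIF4B and EIF4EBP1 had differences of -0.32, 0.21, 0.34 and -0.38 with adjusted P values of 0.694 to 0.932. For EIF4A2, EIF4EBP2 and EIF4E2 the response of the transgene line was thus not separated from that of the parental line by this test. An unadjusted P below 0.05 was found for 4 of the 10, against 26.1% of all genes.

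**Figure D4:**
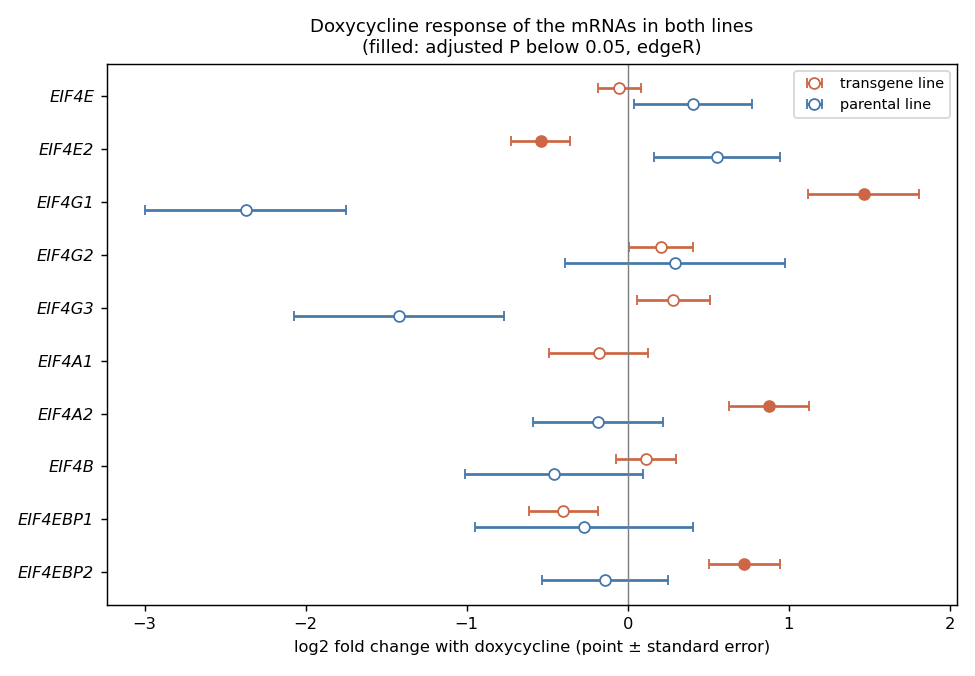
Log2 fold change with doxycycline (horizontal axis) of the 10 mRNAs in both lines, transgene and parental, as points with standard errors. Filled points passed an adjusted P of 0.05. EIF4G1 lies at 1.47 in the transgene line and at -2.37 in the parental line, and EIF4A1 has no parental point because it fell below the filter.

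The wider cap-binding and eIF4F pathway was followed in a further 28 genes listed by role. In the transgene line 24 were tested, and 9 (37.5%) were called, 6 higher and 3 lower, against 39.8% of all genes. Their median log2 fold change was 0.23 against 0.04 over all genes. EIF4E1B, ANGEL1, MKNK1 and EIF4H fell below the filter. In the parental line 0 of 21 tested were called by edgeR (0% of all genes) and 3 had an unadjusted P below 0.05 (2.93% of all genes). In the test between lines 0 of 24 were called (2.98% of all genes) and 8 had an unadjusted P below 0.05 (26.1% of all genes).

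Among the other cap-binding proteins 1 of 5 tested was called, against 39.8% of all genes. EIF4E3, a further relative of EIF4E, had 7.84 to 10.6 CPM in Control and 11.1 to 14.8 CPM in Induced libraries, without overlap (log2 fold change 0.60, SE 0.16, edgeR adjusted P = 0.0186). LARP1, which binds the cap and the TOP tract of TOP mRNAs, had a log2 fold change of 0.60 and an adjusted P of 0.0502, and was called without Control replicate 5 (0.81, adjusted P = 0.00272) or Induced replicate 2 (0.67, adjusted P = 0.0353). NCBP1 and NCBP2, the nuclear cap-binding complex, had values of -0.21 and 0.25 (adjusted P = 0.242 and 0.261). CTIF, which joins the nuclear cap-binding complex to the translation machinery, rose (0.77, SE 0.23, edgeR adjusted P = 0.0248). The call of EIF4E3 was lost without Control replicate 2 (adjusted P = 0.0501) or Induced replicate 1 (0.0507), and with GC offsets its log2 fold change was 0.10. That of CTIF held when Control replicate 5 (adjusted P = 0.0174) or Induced replicate 2 (0.00267) was left out and was lost without any other library (0.0515 to 0.0642).

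Of the proteins that bind EIF4E or EIF4E2, 1 of 6 tested was called, against 39.8% of all genes. CYFIP2, which can hold EIF4E in a repressed state, fell by 0.66 on the log2 scale (SE 0.22, edgeR adjusted P = 0.0353). Its paralog CYFIP1 had a value of -0.06 (edgeR adjusted P = 0.731). EIF4EBP3, a further 4E-binding protein, had a value of -0.74 (adjusted P = 0.0655), and was called without Control replicate 5 (-0.92, adjusted P = 0.00896) or Induced replicate 2 (-1.01, adjusted P = 0.0140). GIGYF1 and GIGYF2, the partners of EIF4E2, had values of -0.65 and 0.08 (adjusted P = 0.125 and 0.753). The call of CYFIP2 held in 3 of the 10 fits that left out a library, those without Control replicate 4 (adjusted P = 0.0495), Control replicate 5 (0.00356) or Induced replicate 2 (0.0249). In the other fits its adjusted P was 0.0588 to 0.0818, and it was 0.0967 with total counts alone and 0.365 with 1 surrogate variable.

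Of the kinases, 2 of 3 tested were called, in opposite directions, against 39.8% of all genes. MKNK2, which phosphorylates EIF4E while docked on EIF4G, rose from 32.5 ± 3.03 to 56.1 ± 12.5 CPM (SD, n = 5, log2 fold change 0.79, SE 0.18, edgeR adjusted P = 0.0175). RPS6KB2, an S6 kinase downstream of mTOR, fell from 200 ± 58.4 to 101 ± 22.4 CPM (SD, n = 5, -0.99, SE 0.23, edgeR adjusted P = 0.0175). Its paralog RPS6KB1 had a value of 0.07 (adjusted P = 0.706). MKNK2 and RPS6KB2 were called whichever library was left out, but neither was with 1 surrogate variable (edgeR adjusted P = 0.0699 and 0.0692).

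Of the helicase group 1 of 4 tested was called, against 39.8% of all genes. PDCD4, which inhibits EIF4A, rose by 0.47 (SE 0.17, edgeR adjusted P = 0.0435), and held its call only without Induced replicate 2 (adjusted P = 0.0271) or Induced replicate 5 (0.0407). When any other library was left out its adjusted P was 0.0527 to 0.119, and with GC offsets its log2 fold change was -0.02. EIF4A3, the paralog found in the exon junction complex, had 31.6, 23.7, 8.34, 51.6 and 206 CPM in Control and 226, 92.6, 226, 226 and 337 CPM in Induced replicates 1 to 5. As for EIF4G1, Control replicate 5 was far above the other Control libraries and exceeded Induced replicate 2. The log2 fold change of EIF4A3 was 1.78 (SE 0.70, edgeR adjusted P = 0.0589), and it was called without Control replicate 5 (2.92, adjusted P = 0.000521) or without Induced replicate 2 (1.98, adjusted P = 0.0418). DDX3X, a further helicase used in initiation, had a value of -0.15 (adjusted P = 0.431).

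Of the genes that bridge eIF4F to the poly(A) tail, 3 of 5 tested were called, against 39.8% of all genes. So few genes cannot set this role apart from that share. PAIP1, which binds the poly(A)-binding protein and EIF4A and stimulates translation, rose from 18.8 ± 2.10 to 44.9 ± 13.9 CPM (SD, n = 5, log2 fold change 1.26, SE 0.24, edgeR adjusted P = 0.0175). Induced replicate 2, at 20.4 CPM, was the only Induced library within the Control range. PAIP2, which displaces the poly(A)-binding protein and represses translation, rose from 49.1 to 93.0 CPM in Control to 107 to 178 CPM in Induced libraries, without overlap (0.82, SE 0.20, edgeR adjusted P = 0.0176). Its relative PAIP2B fell by 0.99 on the log2 scale (SE 0.30, edgeR adjusted P = 0.0277). The poly(A)-binding protein genes PABPC1 and PABPC4 had values of 0.22 and 0.38 (adjusted P = 0.387 and 0.0588), PABPC4 being called without Induced replicate 2 (0.43, adjusted P = 0.0394).

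PAIP1 and PAIP2 were called whichever library was left out, but with 1 surrogate variable neither was (edgeR adjusted P = 0.0654 and 0.0816), nor was PAIP2 with GC offsets (0.38, edgeR adjusted P = 0.0873). The call of PAIP2B was lost without Control replicate 2 (adjusted P = 0.0551) or Induced replicate 1, 3, 4 or 5 (0.0681, 0.0614, 0.0614 and 0.0507), and was -0.62 without Control replicate 3. In the parental line PABPC1, PABPC4 and GIGYF2 were the 3 genes with an unadjusted P below 0.05, at -1.58, -1.72 and -1.20 on the log2 scale, and each had an adjusted P of 0.997 in edgeR.

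**Figure D5:**
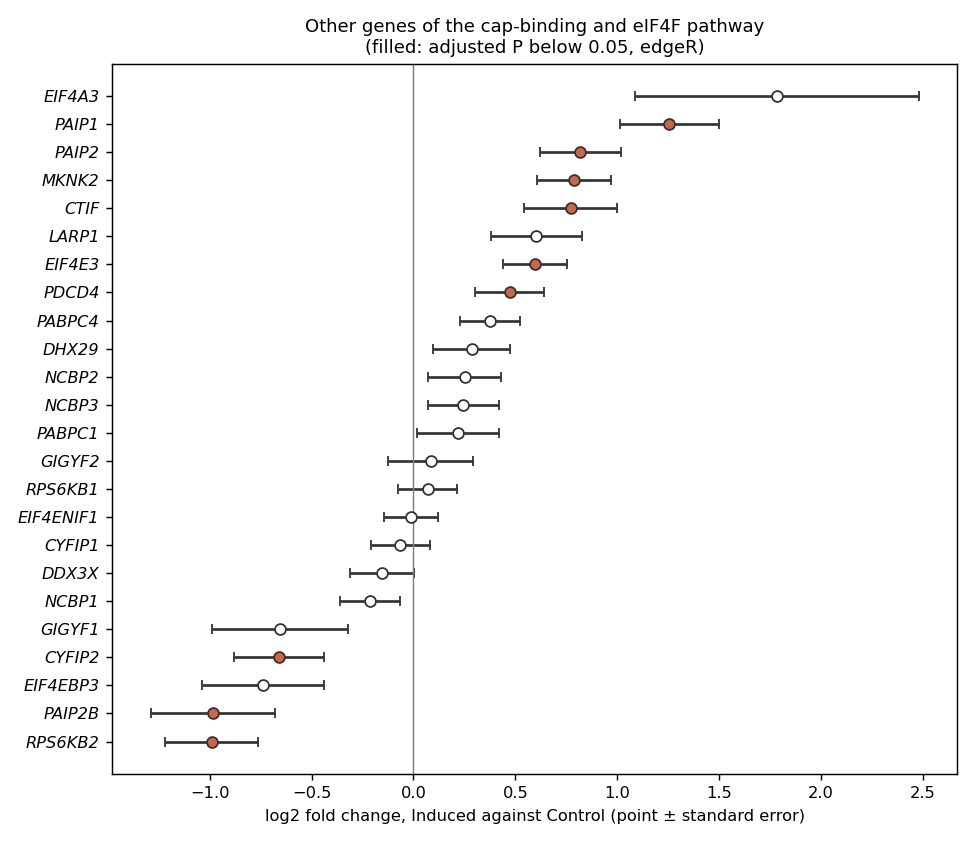
Log2 fold change of Induced against Control (horizontal axis) for the 24 tested genes of the wider pathway, as points with standard errors, in the order of the change. Filled points passed an adjusted P of 0.05. PAIP1 (1.26), PAIP2 (0.82) and MKNK2 (0.79) are the highest filled points, RPS6KB2 and PAIP2B (both -0.99) the lowest, and EIF4A3 has the highest value with the widest error.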

How the data were processed

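Cytoplasmic RNA was sequenced as QuantSeq REV 3′ tags. The authors deposited raw counts of tags per Ensembl gene for each library, made with Lexogen's QuantSeq REV pipeline for GRCh38. Which aligner and annotation release were used, whether strand was read and how duplicates were treated is not given in the sources used here. The 5 summary entries and the 92 spike-in entries, all at 0, were left out. Each table also holds the number of tags outside genes, of multiply aligned tags and of tags ambiguous between genes. The labels list doxycycline for every library, and the group was taken from its name.

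edgeR 4.0.16 in R 4.3.3 was run on the counts of genes with a base mean above 20 (quasi-likelihood test after TMM scaling, Benjamini-Hochberg adjustment over all genes tested, calls at an adjusted P below 0.05), each line alone and both with an interaction. Standard errors (SE) are the size of the log2 fold change over the root of its F statistic. CPM are TMM-scaled without a prior count, and correlations and ratios use log2 values with a prior count of 2. Scripts were tested on simulated data. Alternatives were DESeq2 1.42.0, its size factors, total counts, filterByExpr, no filter, the replicate block, GC offsets, 1 surrogate variable (sva 3.50.0) and each replicate left out. GENCODE release 44 named 56104 of 60107 genes.

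Members and lists were chosen with earlier results of these data known. All 10 genes are named, as are the called genes of the wider list and at most 12 of those tested but not called, beside the 4 below the filter. The closest genes are the 5 with the highest correlation with the called gene of lowest P in each direction. No 2 libraries agreed within sampling noise.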

Additional observations from a re-analysis of the deposited data

Results flagged for a closer look

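The response of EIF4G1 to doxycycline differed between the lines by the interaction test. The transgene minus parental log2 fold change was 3.64 (SE 0.70, edgeR adjusted P = 0.0372). RNMT differed likewise, by 2.43 (SE 0.39, edgeR adjusted P = 0.0258). The call for RNMT was lost without Control replicate 1, 2 or 4 (adjusted P = 0.0769, 0.0736 and 0.0543), Induced replicate 1, 3 or 4 (0.0723, 0.0564 and 0.0746), No Dox replicate 1 (0.0782) or With Dox replicate 1 (0.124), and the losses for EIF4G1 are given above. In each fit named here for RNMT, 0 genes were called over all genes. Outlying libraries were sought with a Dixon ratio, the gap between an extreme value and the next over the range. None was marked in 20 groups, the Control and Induced values of each of the 10 genes. With 5 values per group this rule has little power, and the parental groups were not examined. It does not clear Control replicate 5 and Induced replicate 2, which stood apart as described above.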

How the results depend on the processing

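The direction of the 4 called genes (EIF4G1, EIF4A2, EIF4EBP2 and EIF4E2) in the transgene line was the same under every alternative run. The number called there, 4, was 0 with 1 surrogate variable, 1 to 5 when a replicate was left out, and 3 with GC offsets (EIF4G1, EIF4E2 and EIF4E). Over all genes 5183 were called, against 1 with the surrogate variable, 3465 with GC offsets, 1869 to 7604 when a replicate was left out and 8329 without Control replicate 5 and Induced replicate 2 together, an alternative chosen after seeing the data. Of the wider list 9 were called, against 0 with the surrogate variable, 4 to 13 when a replicate was left out and 14 without both libraries. The adjusted P of a gene depends on the P values of all genes tested. A call can therefore be lost although the gene's own change stays as large. Total counts alone moved the median of all genes from 0.04 to 0.28 and the share of calls that were higher from 50.2% to 74.2%, and EIF4E2 (-0.30, adjusted P = 0.126, edgeR) was then not called. Nor was it without a filter (0.0644). The cause was not tested.

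In the parental line 0 genes were called, against 1 with DESeq2, 10 without a filter (1 of them EIF4G1) and 0 to 2 when a replicate was left out. Between the lines 365 genes were called, against 236 with DESeq2's size factors, 1478 with its Wald test, 3 with filterByExpr, 150 without a filter, 222 with the replicate block, 0 to 2290 when a replicate was left out and 3040 without Control replicate 5 and Induced replicate 2. The higher share of these calls was 26% and was 91.3% with total counts. Of the 10 genes 1 was called, and 2, 0, 0 to 2 and 3 were with the Wald test, filterByExpr, a replicate left out and both libraries left out.

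Same-numbered libraries did not consistently deviate together (transgene line correlations -0.373 to 0.625, parental line -0.420 to 0.237), so the numbers were not taken as pairs. The value of 0.625, for Control with Induced replicate 2, was the highest of all Control and Induced pairs. The replicate block ended the call of CYFIP2 (adjusted P = 0.0513, edgeR, and 0.0541 with GC offsets) and gave 5188 calls in the transgene line, and 0 in parental cells.

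Genes that were not called changed sign under some settings. In the transgene line EIF4E was 0.19 with total counts. EIF4G2 was -0.058 with GC offsets, -0.027 with these and the replicate block, and -0.10 with the surrogate variable. EIF4A1 was 0.074 with total counts, 0.48 with the surrogate variable, -0.39 to 0.030 when a replicate was left out and -0.55 without both libraries. EIF4B was -0.12 with GC offsets and with these and the block, and was 0.017 to 0.21 when a replicate was left out and -0.020 without both libraries. EIF4EBP1 was 0.092, 0.11 and 0.075 with GC offsets, these with the block, and the surrogate variable. PDCD4, a called gene, was -0.016 with GC offsets and -0.0021 with the block added. Between the lines, with total counts, EIF4G2 was 0.30 and EIF4EBP1 0.35, EIF4EBP1 was 0.031 with the block, and EIF4A1 was -0.16 without both libraries. When a replicate was left out, the differences between the lines were -1.35 to 0.33 for EIF4G2, -0.37 to 2.61 for EIF4A1, -0.12 to 0.79 for EIF4B and -0.62 to 0.78 for EIF4EBP1. In the parental line the ranges were -0.36 to 1.56 for EIF4G2, -0.30 to 0.14 for EIF4A2, -0.70 to 0.28 for EIF4B, -1.45 to 0.24 for EIF4EBP1 and -0.28 to 0.20 for EIF4EBP2. In the parental line EIF4A1 had at most 9 tags per library.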
